A study of Arabidopsis thaliana with 6 samples.

Results

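The R2R3-MYB genes of Arabidopsis thaliana are described here across seedlings of the epic2 line and seedlings of the group that the deposited table calls silex. Members were all rows whose gene name is MYB, with or without AT in front, followed by a family number. The 11 numbers known as regulators of glucosinolates and flavonoids were left out, and 10 rows bore those names. The remaining 107 rows stood for 106 genes, out of 26765 rows in the table. MYB58 had 2 rows over the same interval.

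RNA came from the aerial parts of Col-0 seedlings aged 17 days that had been kept at 24 °C with 16 h of light. There were 3 epic2 samples and 3 wild type samples. No source used here names the gene altered in epic2. The name silex occurs in no label, so it was matched to wild type by elimination, and directions below hold against whatever plants it denotes. Levels are FPKM, a read density scaled for transcript length and library size, and the deposited table holds 1 such value for each line, pooled over its samples, so no level below has an SD. Because of the scaling for length, levels of different genes can be set side by side.

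R2R3-MYB proteins are plant transcription factors named for a pair of MYB repeats, helical folds that bind DNA. The family sets epidermal cell types such as trichomes and guard cells, builds the cuticle and the secondary cell wall, and tunes phenylpropanoid metabolism and stress responses. Some of its members work in complexes with bHLH proteins, while small R3-MYB proteins with a single repeat compete for the same partners.

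The family's best-known small RNA, miR159, recognises the GAMYB-like members, and its sequence is shown because it divides the family by sequence alone. The mature miRNAs printed below are from the RefSeq annotation of TAIR10.1 and are read 5′ to 3′. They carry the same seed, which is bases 2 to 8 and is given in capitals. The annotation also lists ath-miR159b-5p, whose bases 2 to 8 differ, and it is not printed. ath-miR159a lies at chr1:27713234-27713254 on the minus strand, ath-miR159b-3p at chr1:6220813-6220833 on the plus strand and ath-miR159c at chr2:18994826-18994846 on the plus strand.
ath-miR159a: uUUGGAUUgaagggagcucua
ath-miR159b-3p: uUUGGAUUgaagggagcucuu
ath-miR159c: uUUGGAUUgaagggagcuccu
The best match to ath-miR159a in the coding exons of each member gene held 2 to 4 differences from the perfect complement in 7 genes and 7 or more in the other 99. The 7 genes were MYB33, MYB65, MYB81, MYB97, MYB101, MYB104 and MYB120. In the sites below, read 5′ to 3′ on the coding strand, capitals mark the bases that differ from the perfect complement of ath-miR159a, which includes G opposite U. The MYB33 site lies at chr5:1839579-1839599 on the plus strand, the MYB65 site at chr3:3604151-3604171 on the plus strand and the MYB101 site at chr2:13783168-13783188 on the minus strand.
MYB33 site: tGgagctcccttcaTtccaaT
MYB65 site: tGgagctcccttcaTtccaaT
MYB101 site: tagagctTccttcaaAccaaa
A match of letters is a description of the gene and not a measurement of cleavage. The levels of these 7 genes are given with their roles below.

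The comparison of epic2 with silex asked which family members differ between the lines. MYB47 was higher in epic2, while MYB23, MYB55, MYB60, MYB70, MYB77 and MYB106 were lower. The authors tested 48 of the 107 member rows, and 7 of these (14.6%) had a q-value, the p-value adjusted for multiple tests, at or under 0.05 in the authors' deposited table. Among all rows, 18.3% of the 18916 tested rows were called by the same rule, 9.51% as higher and 8.8% as lower in epic2. The family's share of calls in either direction was therefore near the background. By direction, 1 tested row (2.08%) was called higher and 6 (12.5%) lower. Under other call rules the called members numbered 12 at a q of 0.10, where 22.6% of tested rows were called, 6 at a q of 0.01 (11.8% of rows) and 2 with Bonferroni adjustment (4.41% of rows). The same 7 members were called when p was adjusted by Benjamini-Hochberg over every tested row (17.0% of rows) and when a mean of at least 1 FPKM was required (19.1% of rows), and 2 members passed a 2-fold minimum on the log2(FPKM + 1) scale (1.62% of rows). The lowest mean among the 7 was 3.34 FPKM (MYB55), so the 1 FPKM minimum could remove none of them. Every count of tested members leaves out the low members that the authors did not test, and it cannot stand for the family as a whole.

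The sizes of the differences leaned to lower levels in epic2. Of the 48 tested rows 36 (75%) had a lower value in epic2, against 47.8% of all tested rows. The median log2 fold change, epic2 over silex, was -0.34 over tested members (interquartile range -0.65 to 0.01), against 0.01 over all tested rows (interquartile range -0.18 to 0.19). With the untested rows counted too, 60 member rows were lower in epic2, 33 were higher and 14 were equal at 0. That is 64.5% lower among the member rows that differed, against 47.9% in the table. Among the 41 members tested and not called, 30 were lower and 11 higher, with a median of -0.22. Members share pathways and neighbours, so they are not independent of each other and no test was made over the list.

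Tested members were expressed at low levels. Their mean over both groups had a median of 3.31 FPKM, against 10.9 FPKM for all tested rows, and 9 of them were under 1 FPKM. Family genes that stand under other names or were left out by the rule are not counted here, and some of them stood higher. The lowest group, under 1 FPKM, had 5 of 9 members lower in epic2 with a median log2 fold change of -0.01, against -0.12 for the rows at that level. Between 1 and 5 FPKM 17 of 21 were lower with a median of -0.49, whereas the rows of the table at that level had a median of -0.03. Between 5 and 20 FPKM 13 of 16 were lower with a median of -0.32, against -0.01 for the rows at that level. From 20 to 100 FPKM 1 of 2 was lower. The share of all tested rows lower in epic2 in these groups, from lowest to highest level, was 56.2%, 53.9%, 52.1% and 40.1%. The standard error of the log2 fold change, taken as the authors' fold change divided by their test statistic, had a median of 0.30 over tested members and 0.16 over all tested rows. Tested members were thus measured with less precision than most of the table.

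**Figure D1:**
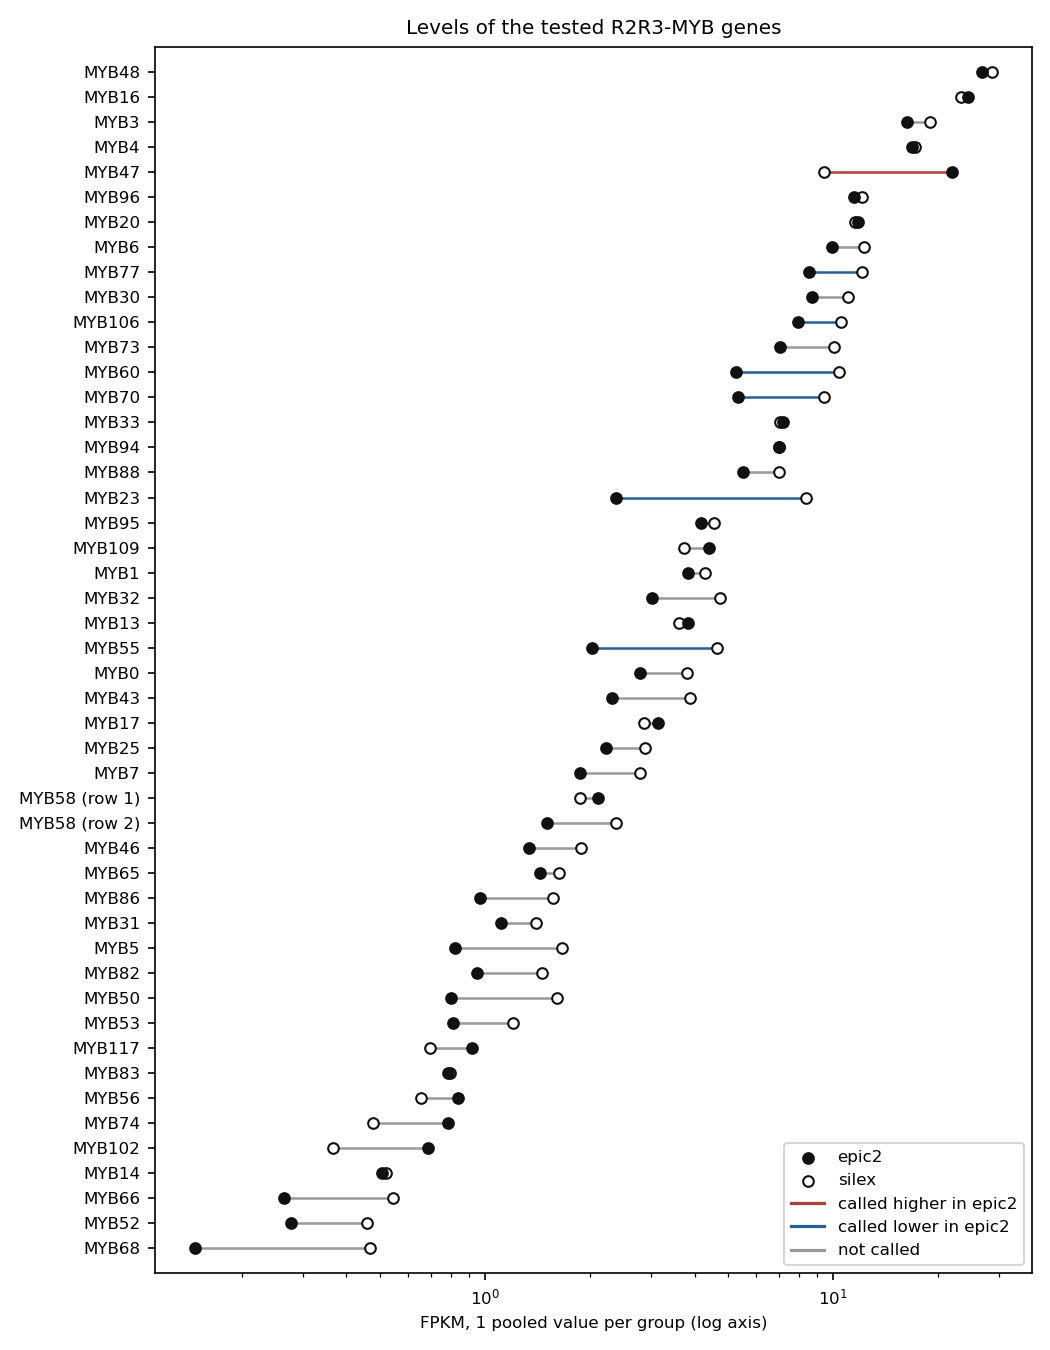
FPKM of each tested R2R3-MYB row in epic2 and in silex, with 1 pooled value per group and so no error bars; the FPKM axis is logarithmic. MYB48 (26.7 FPKM in epic2, 28.6 FPKM in silex) and MYB16 (24.4 FPKM in epic2, 23.3 FPKM in silex) stand at the top, and MYB23 shows a wide gap, with 2.38 FPKM in epic2 and 8.33 FPKM in silex.

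In the plot of levels the 2 strongest members differed between the lines by less than their standard errors. MYB48, a relative of MYB59, had 26.7 FPKM in epic2 and 28.6 FPKM in silex. MYB59 itself shares a row with another gene and so is no member by the rule. That joint row had 88.9 FPKM in epic2 and 77.7 FPKM in silex and was not called. The other member above 20 FPKM, MYB16, is described with the cuticle regulators. Only 9 member rows reached a mean of 10 FPKM.

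Among the regulators of epidermal cell fate, MYB23 was lower in epic2. MYB23 acts with MYB0, known as GLABRA1, to start and shape leaf hairs, and in roots it acts with MYB66, known as WEREWOLF, to pattern hair cells. MYB23 (AT5G40330, chr5:16127725-16129655, plus strand, 3 coding exons) had 2.38 FPKM in epic2 and 8.33 FPKM in silex. The authors' deposited table gives it a log2 fold change of -1.81 ± 0.27 (SE implied by the test statistic) with q = 1.33e-09. It had the largest called difference in size among the members.

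The other 3 epidermal fate members were lower in value and did not pass. MYB0 had 2.78 FPKM in epic2 and 3.80 FPKM in silex, with a log2 fold change of -0.45 ± 0.35 (q = 0.408) in the authors' deposited table. MYB82, which can also start trichomes, had 0.949 FPKM in epic2 and 1.46 FPKM in silex (q = 0.477 in the authors' deposited table). MYB66 was low, at 0.265 FPKM in epic2 and 0.546 FPKM in silex, and its standard error of 0.94 was the widest of the tested members. MYB5, which shapes seed coat cells and trichomes, had 0.820 FPKM in epic2 and 1.67 FPKM in silex. Its log2 fold change of -1.03 ± 0.45 had q = 0.0827 in the authors' deposited table and did not pass.

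The proteins that work with or against these MYBs were read from a list of 15 genes of R3-MYB repressors and of bHLH, WD40, homeodomain and WRKY proteins of the same pathway. All 15 were tested, and 5 were called, all lower in epic2 (33.3%, beside 18.3% of all tested rows), with a median log2 fold change of -0.21. At an unadjusted p under 0.05, too, 5 were lower and 0 higher, and with Benjamini-Hochberg adjustment over all tested rows 4 were lower and 0 higher. GL2, the homeodomain protein that acts downstream of the trichome complex, had 2.56 FPKM in epic2 and 7.33 FPKM in silex. For GL2 the authors' deposited table gives -1.52 ± 0.59 on the log2 scale with q = 0.0434. MYBL2, a repressor of anthocyanin and trichome complexes, had 25.2 FPKM in epic2 and 56.03 FPKM in silex, and the authors' deposited table lists its log2 fold change as -1.16 ± 0.11 with a q of 0. The R3 repressor genes CPC and ETC1 were lower as well. CPC had 2.03 FPKM in epic2 and 4.79 FPKM in silex, with a log2 fold change of -1.24 ± 0.43 (q = 0.0190) in the authors' deposited table. ETC1 had 0.774 FPKM in epic2 and 2.76 FPKM in silex, with a log2 fold change of -1.84 ± 0.67 (q = 0.0302) in the authors' deposited table. The fifth called gene was the bHLH gene ATMYC1, with 4.61 FPKM in epic2 and 6.83 FPKM in silex. In bulk seedlings, fewer cells of a type and less RNA per cell cannot be told apart.

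The core partners of the trichome complex were not called. The WD40 gene TTG1 had 32.98 FPKM in epic2 and 32.5 FPKM in silex. The bHLH gene EGL3 had 3.16 FPKM in epic2 and 2.77 FPKM in silex, and its paralogue GL3 had 0.414 FPKM in epic2 and 0.631 FPKM in silex. The R3 repressor TRY, close in sequence to CPC, had 17.1 FPKM in epic2 and 15.3 FPKM in silex. Called and uncalled partners therefore both occurred in this list.

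Among the regulators of the cuticle and of epidermal outgrowth, MYB106 and MYB60 were lower in epic2 and 6 others were not called. MYB106, a MIXTA-like factor that promotes cuticle and restrains trichome branching, had 7.91 FPKM in epic2 and 10.6 FPKM in silex. The authors' deposited table gives it a log2 fold change of -0.42 ± 0.15 with q = 0.0207, the highest q among the calls. MYB106 lies at chr3:46396-48296 on the minus strand with 5 coding exons, and the annotated long noncoding RNA AT3G01142 overlaps it. Whether counting used strand is not stated, and reads from the gene and from an overlapping RNA on the opposite strand cannot be told apart. Its close relative MYB16, which acts in the same pathway, had 24.4 FPKM in epic2 and 23.3 FPKM in silex, with a log2 fold change of 0.07 ± 0.11 (q = 0.725) in the authors' deposited table. MYB17, a factor of early flower meristems, had 3.13 FPKM in epic2 and 2.87 FPKM in silex.

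MYB60 is a guard cell factor that promotes stomatal opening. It lies at chr1:2819065-2820395 on the minus strand (AT1G08810, 3 coding exons). It had 5.24 FPKM in epic2 and 10.4 FPKM in silex, and the authors' deposited table gives a log2 fold change of -0.99 ± 0.29 with q = 0.00537. The wax regulators of the same subgroup had smaller log2 fold changes and were not called. MYB30, which promotes very long chain fatty acid synthesis and hypersensitive cell death, had 8.72 FPKM in epic2 and 11.1 FPKM in silex. Its log2 fold change of -0.34 ± 0.14 had q = 0.0619 in the authors' deposited table and was not called. MYB96, a drought regulator of wax genes, had 11.5 FPKM in epic2 and 12.1 FPKM in silex. MYB94, its partner in wax control, had 6.97 FPKM in both lines. MYB31 had 1.11 FPKM in epic2 and 1.402 FPKM in silex. MYB88, which limits divisions in the stomatal lineage with FLP, had 5.51 FPKM in epic2 and 6.97 FPKM in silex (q = 0.269 in the authors' deposited table).

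Called genes of wax and cutin formation lay in both directions. Of 33 genes in the list 29 were tested, 4 were called higher and 6 lower in epic2 (34.5% called, beside 18.3% of all tested rows, 9.51% higher and 8.8% lower), and their median log2 fold change was -0.04. MAH1, the mid-chain alkane hydroxylase listed as CYP96A15, had 3.31 FPKM in epic2 and 0.579 FPKM in silex. For MAH1 the authors' deposited table gives 2.52 ± 0.57 on the log2 scale with q = 0.000145. CER4, a fatty acyl reductase of wax alcohol synthesis, had 0.764 FPKM in epic2 and 2.46 FPKM in silex, with a log2 fold change of -1.69 (q = 1.69e-05) in the authors' deposited table. CYP86A4 and CYP77A6, both cutin monomer hydroxylases, were lower. CYP86A4 had 1.77 FPKM in epic2 and 4.22 FPKM in silex, and CYP77A6 had 3.66 FPKM in epic2 and 5.78 FPKM in silex.

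The members that respond to abscisic acid and auxin, MYB70, MYB73 and MYB77, were all lower in value in epic2, and MYB70 and MYB77 passed the test. MYB70 (AT2G23290, chr2:9904787-9905920, minus strand, 1 coding exon) had 5.31 FPKM in epic2 and 9.42 FPKM in silex. The authors' deposited table puts its log2 fold change at -0.83 ± 0.19 with q = 0.000128. MYB77 (AT3G50060, chr3:18557970-18559106, minus strand, 1 coding exon), which acts with auxin response factors in lateral root growth, had 8.50 FPKM in epic2 and 12.1 FPKM in silex. Its log2 fold change was -0.51 ± 0.16 with q = 0.00961 in the authors' deposited table. MYB73 had 7.02 FPKM in epic2 and 10.07 FPKM in silex. Its log2 fold change of -0.52 was close to that of MYB77, but its standard error was 0.30 and its q was 0.220 in the authors' deposited table. The MYB73 row shares its interval with a row that names HMA1 and another gene. MYB44, the remaining gene of this subgroup, stands in the table as MYBR1 and so is no member by the rule. It had 17.3 FPKM in epic2 and 20.3 FPKM in silex (q = 0.102 in the authors' deposited table).

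MYB47 was the one member called higher in epic2. It lies at chr1:6450594-6453114 on the plus strand (AT1G18710, 3 coding exons) and had 21.9 FPKM in epic2 and 9.39 FPKM in silex. The authors' deposited table gives a log2 fold change of 1.22 ± 0.15 and lists its q as 0. Its closest relative in the family, MYB95, was not called. MYB95 had 4.18 FPKM in epic2 and 4.55 FPKM in silex, with a log2 fold change of -0.12 ± 0.23 (q = 0.770) in the authors' deposited table. The difference between their fold changes was not tested, and the MYB95 row shares its interval with the row of AT1G74440.

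**Figure D2:**
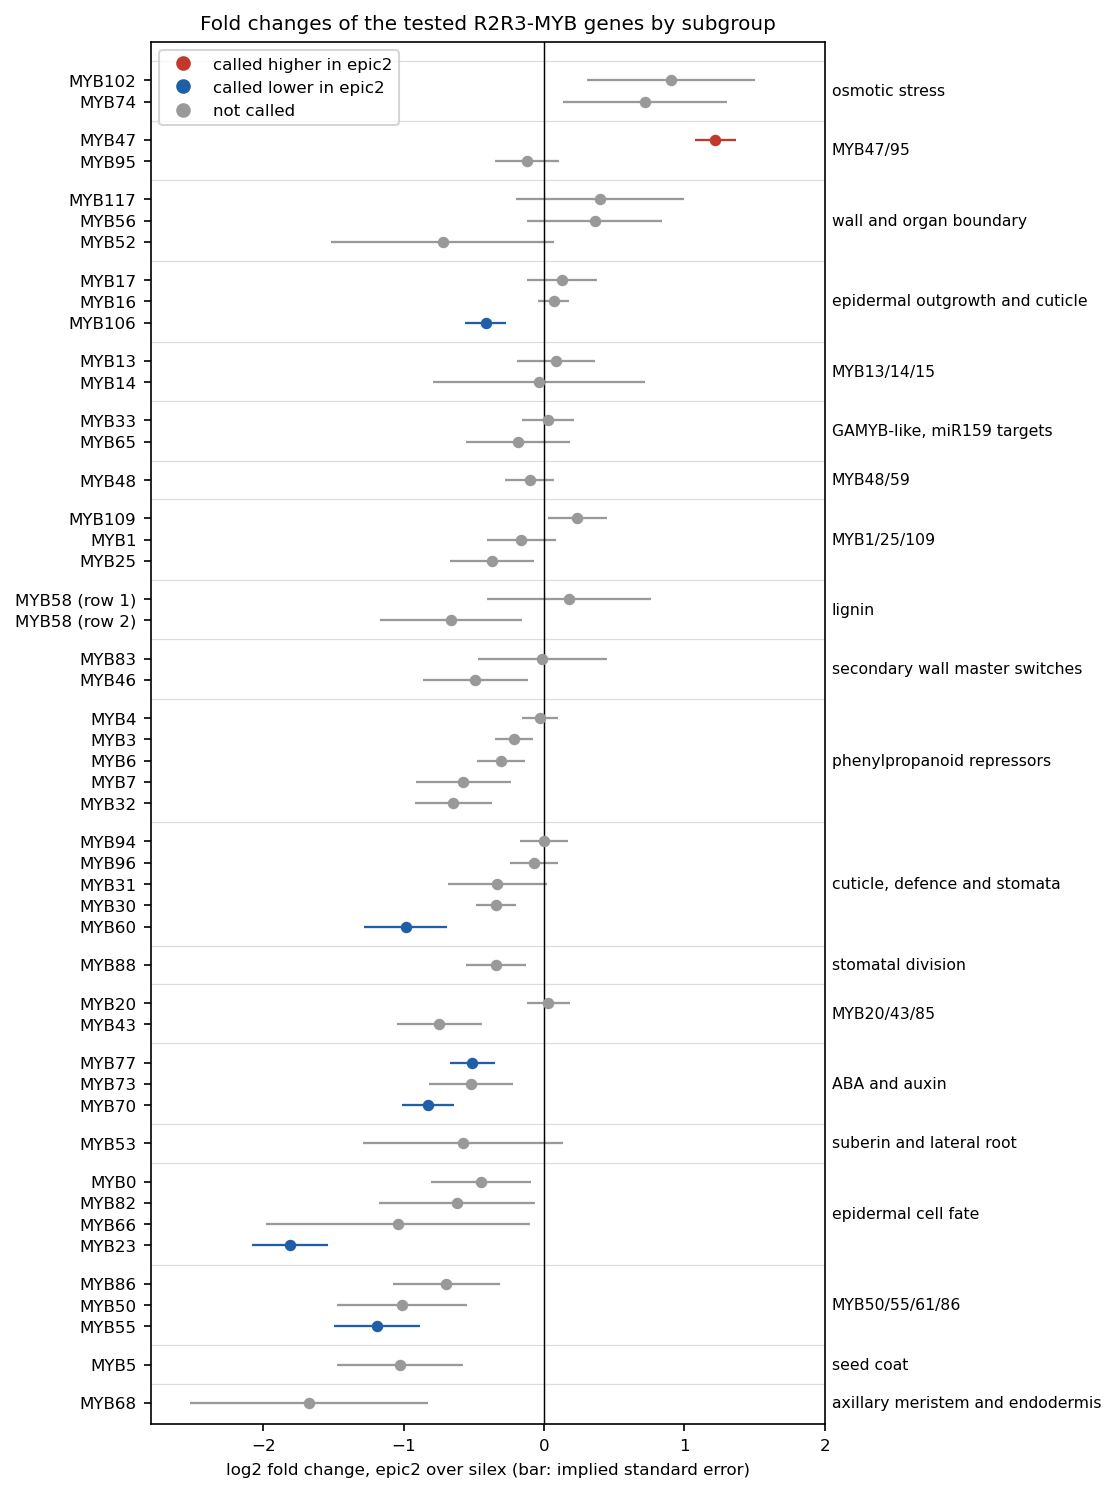
Log2 fold change (epic2 over silex) of each tested R2R3-MYB row, grouped by subgroup, with bars for the implied standard error. Called members are coloured, MYB47 stands alone on the higher side at 1.22, and the 6 members called lower run from -1.81 (MYB23) to -0.42 (MYB106).

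The plot by subgroup shows that the calls were spread over several subgroups, and no subgroup had more than 2. The subgroup of MYB50, MYB55, MYB61 and MYB86 had 3 tested members, all lower in value in epic2. MYB55 (AT4G01680, chr4:716004-717579, minus strand, 3 coding exons) had 2.03 FPKM in epic2 and 4.64 FPKM in silex. For MYB55 the authors' deposited table gives -1.19 ± 0.31 on the log2 scale with q = 0.000923. MYB50 had 0.7995 FPKM in epic2 and 1.61 FPKM in silex, a log2 fold change of -1.01 ± 0.46 with q = 0.0977 in the authors' deposited table. MYB86 had 0.965 FPKM in epic2 and 1.56 FPKM in silex. MYB61, a regulator of stomatal aperture and xylem, was not tested, at 0.207 FPKM in epic2 and 0.342 FPKM in silex.

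The phenylpropanoid repressors, MYB3, MYB4, MYB6, MYB7 and MYB32, were not called, and at an unadjusted p under 0.05 1 of them was lower. All 5 had lower values in epic2, with a median log2 fold change of -0.31. MYB4, which represses sinapate ester synthesis, had 16.8 FPKM in epic2 and 17.1 FPKM in silex. MYB3 had 16.3 FPKM in epic2 and 18.9 FPKM in silex, and MYB6 had 9.93 FPKM in epic2 and 12.3 FPKM in silex. MYB32, with 3.02 FPKM in epic2 and 4.72 FPKM in silex, came nearest to a call, with a log2 fold change of -0.65 ± 0.28 (q = 0.0720) in the authors' deposited table. MYB7 had 1.87 FPKM in epic2 and 2.79 FPKM in silex (q = 0.225 in the authors' deposited table).

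The master switches of the secondary wall were weakly expressed and not called. MYB46 had 1.34 FPKM in epic2 and 1.88 FPKM in silex, with a log2 fold change of -0.49 ± 0.37 (q = 0.384) in the authors' deposited table. MYB83, which acts redundantly with it, had 0.785 FPKM in epic2 and 0.792 FPKM in silex. The lignin regulators MYB20 and MYB43 belong together by sequence and differed in value. MYB20 had 11.8 FPKM in epic2 and 11.6 FPKM in silex, while MYB43 had 2.32 FPKM in epic2 and 3.88 FPKM in silex. MYB43, with a log2 fold change of -0.75 ± 0.30 (q = 0.0535) in the authors' deposited table, lay just outside the threshold. MYB58, an activator of lignin genes, is the name of 2 rows over the same interval. Row identifiers run by strand within a chromosome, and their order puts 1 of these rows on the minus strand, where MYB58 lies. That minus strand row had 1.51 FPKM in epic2 and 2.38 FPKM in silex. The other row, on the plus strand by the same order, had 2.11 FPKM in epic2 and 1.87 FPKM in silex. By that order it may not hold MYB58 transcripts, and neither row was called. A long noncoding RNA, AT1G16489, overlaps MYB58.

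Genes of the secondary wall and xylem, a list of enzymes and other wall and xylem proteins together with NAC factors and other regulators of the wall, were lower in epic2 where they were called. Of 31 genes in the list 28 were tested, 7 were called lower and 0 higher (25% called, beside 18.3% of all tested rows, of which 8.8% lower). Lower values in epic2 were found for 25 of the 28, beside 47.8% of all tested rows. At an unadjusted p under 0.05 there were 11 lower and 0 higher, and with Benjamini-Hochberg adjustment over all tested rows 5 lower and 0 higher. Their median log2 fold change was -0.34, against 0.01 for all tested rows. The xylem cysteine peptidase gene XCP1 had 15.4 FPKM in epic2 and 30.04 FPKM in silex, with a log2 fold change of -0.96 ± 0.12 (q = 7.43e-14) in the authors' deposited table. XCP2, its paralogue, had 32.5 FPKM in epic2 and 50.4 FPKM in silex, with a log2 fold change of -0.63 ± 0.10 (q = 4.13e-09) in the authors' deposited table. KNAT7, a homeodomain regulator of the wall, had 2.38 FPKM in epic2 and 4.05 FPKM in silex. PARVUS, a glycosyltransferase of xylan synthesis, had 6.69 FPKM in epic2 and 9.15 FPKM in silex. The cellulose synthase genes IRX3 and IRX1 and the laccase gene LAC17 were the other called genes, and the IRX1 row shares its interval with that of MYB98.

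Genes of lignin and general phenylpropanoid synthesis did not share that direction. Of 21 genes 20 were tested, 3 were called higher and 1 lower (20% called, close to the 18.3% of all tested rows), with a median log2 fold change of 0.03. The phenylalanine ammonia-lyase gene PAL1 had 92.7 FPKM in epic2 and 74.1 FPKM in silex, while its paralogue PAL4 had 1.96 FPKM in epic2 and 4.51 FPKM in silex. 4CL3, a coumarate ligase of the flavonoid branch, had 19.7 FPKM in epic2 and 11.9 FPKM in silex. The alcohol dehydrogenase gene listed as ATCAD4, which makes monolignols, was the other gene called higher, with a log2 fold change of 0.31 ± 0.09 in the authors' deposited table. In the suberin list 1 of 7 tested genes was called, the acyl reductase gene FAR1, with 15.5 FPKM in epic2 and 11.9 FPKM in silex.

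**Figure D3:**
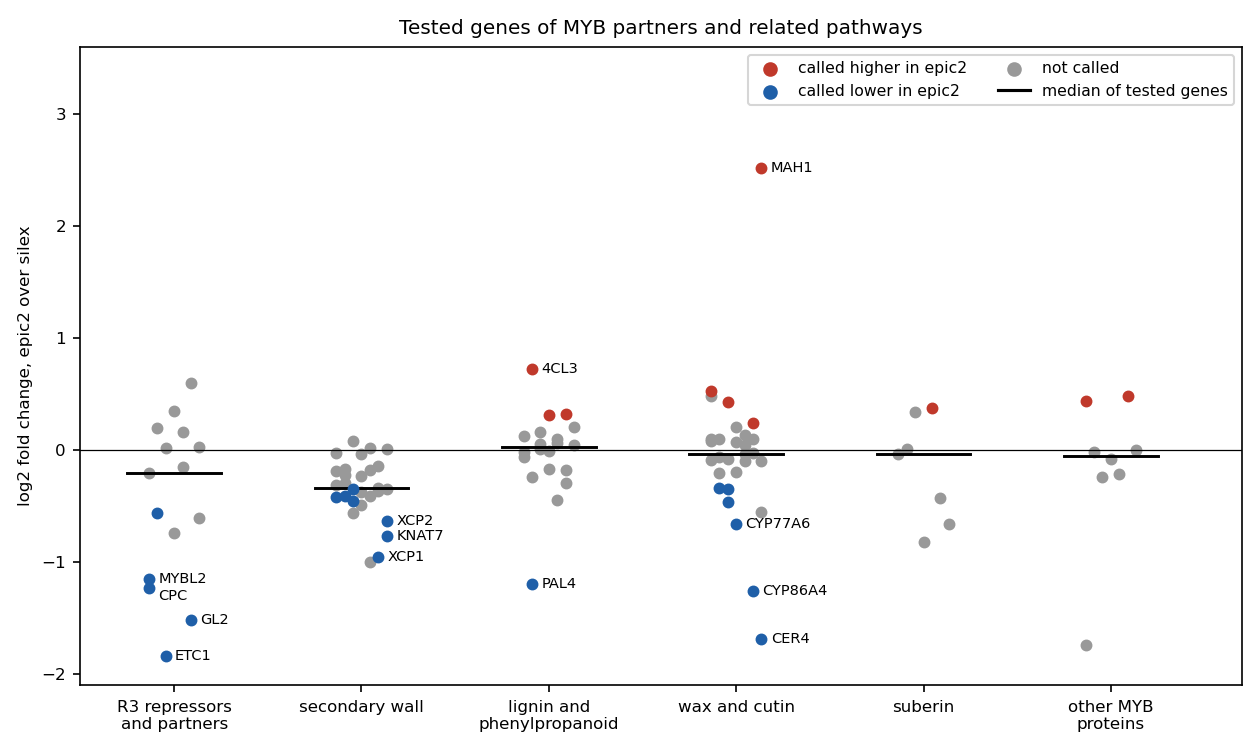
Log2 fold change (epic2 over silex) of the tested genes in 6 lists of MYB partners, related pathways and other MYB proteins; each point is a gene, colour shows the call and the bar is the median of the tested genes. All 7 called secondary wall genes and all 5 called partners lie below 0, and the wax and cutin genes spread from -1.69 (CER4) to 2.52 (MAH1).

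The plot of the lists sets these groups beside each other and shows that called genes lay on both sides only in the wax and cutin list and the lignin list. Members that steer the suberised and lignified barriers of roots were mostly too low to be tested. MYB68, which acts in roots, was tested at 0.146 FPKM in epic2 and 0.468 FPKM in silex, with a log2 fold change of -1.68 ± 0.85 (q = 0.145) in the authors' deposited table. MYB53 had 0.808 FPKM in epic2 and 1.21 FPKM in silex. MYB36, the regulator of the Casparian strip, was not tested at 0.0308 FPKM in epic2 and 0.0911 FPKM in silex.

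The GAMYB-like members that carry the miR159 site shown above split by level. MYB33 had 7.17 FPKM in epic2 and 7.03 FPKM in silex, with a log2 fold change of 0.03 ± 0.18 (q = 0.945) in the authors' deposited table. MYB65 had 1.43 FPKM in epic2 and 1.63 FPKM in silex, with a log2 fold change of -0.19 ± 0.37 (q = 0.788) in the authors' deposited table. Both act in anther development. The other 5 genes with the site, among them the pollen tube factors MYB97, MYB101 and MYB120, were not tested and none exceeded 0.0482 FPKM in either line. MYB101 and MYB104 were listed at 0 in both.

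Members of stress and organ boundary subgroups were low and showed values on both sides. MYB102 and MYB74, which respond to osmotic stress, were higher in value in epic2. MYB102 had 0.684 FPKM in epic2 and 0.365 FPKM in silex, and MYB74 had 0.785 FPKM in epic2 and 0.477 FPKM in silex. In the authors' deposited table MYB102 had a log2 fold change of 0.91 ± 0.60 and MYB74 one of 0.72 ± 0.59, and neither passed. MYB117, the boundary factor LOF1, had 0.915 FPKM in epic2 and 0.695 FPKM in silex, MYB56 had 0.839 FPKM in epic2 and 0.653 FPKM in silex, and MYB52 had 0.277 FPKM in epic2 and 0.457 FPKM in silex. MYB13 had 3.83 FPKM in epic2 and 3.62 FPKM in silex, while MYB14, a factor in freezing tolerance, had 0.506 FPKM in epic2 and 0.519 FPKM in silex. MYB1, MYB25 and MYB109, which form a subgroup of their own, were not called. MYB1 had 3.83 FPKM in epic2 and 4.28 FPKM in silex, MYB25 had 2.23 FPKM in epic2 and 2.88 FPKM in silex, and MYB109 had 4.40 FPKM in epic2 and 3.73 FPKM in silex.

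The authors did not test 58 member rows, and their test failed in 1. The failed row was MYB10, an iron deficiency regulator, with 0.775 FPKM in epic2 and 1.12 FPKM in silex, on an interval shared with PIE1. Of the 58 untested rows 14 were listed at 0 in both lines, 8 at 0 in epic2 alone, 4 at 0 in silex alone and 32 above 0 in both. None exceeded 0.396 FPKM in epic2 (MYB62) or 0.407 FPKM in silex (MYB93). Subgroups with no tested member were the seed coat suberin factors MYB9 and MYB107, and the light signalling factors MYB18, MYB19 and MYB45. The stamen factors MYB21, MYB24 and MYB57 were likewise untested. So were the stress and senescence factors MYB2, MYB62, MYB78, MYB108, MYB112 and MYB116, and the anthocyanin activators MYB113 and MYB114. The embryo and female gametophyte factors MYB22, MYB64, MYB98, MYB100, MYB115, MYB118 and MYB119 were untested too. Besides those named above, the untested members of partly tested subgroups were MYB15, MYB26, MYB37, MYB39, MYB40, MYB41, MYB42, MYB49, MYB54, MYB63, MYB67, MYB69, MYB81, MYB84, MYB85, MYB87, MYB89, MYB92, MYB93, MYB99, MYB105, MYB110 and AtMYB103. MYB72, MYB27, MYB79, MYB121, MYB305 and the tapetum factor of chromosome 5 that the table calls MYB103, named MYB80 in the reference, complete them.

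**Figure D4:**
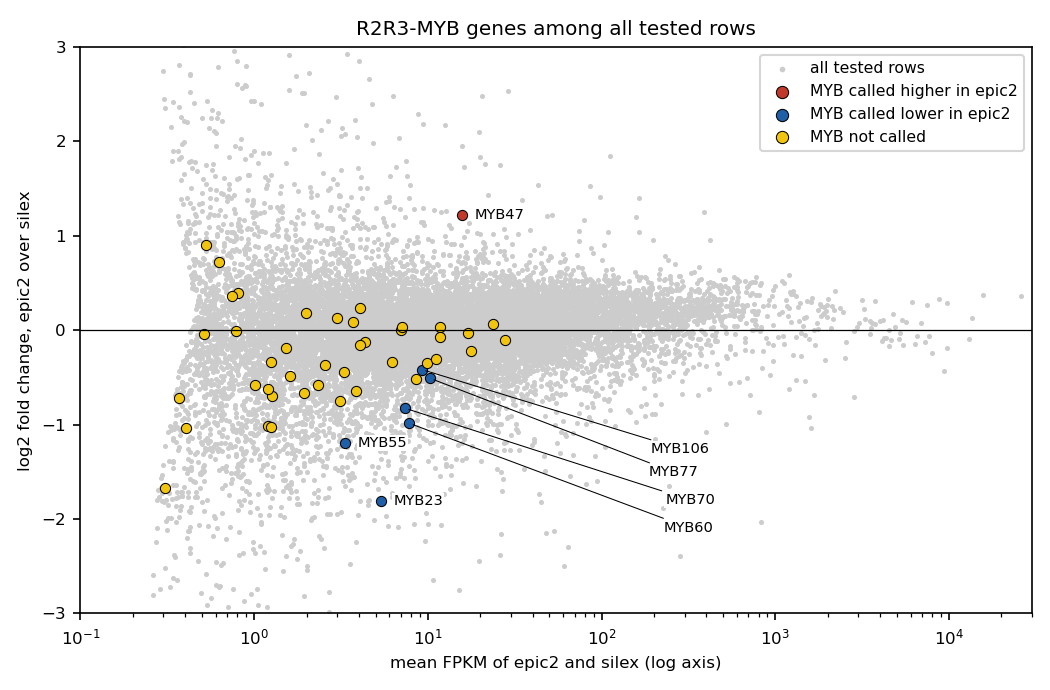
Log2 fold change (epic2 over silex) against mean FPKM (log axis) for all tested rows in grey and the tested R2R3-MYB rows in colour. 54 rows with a log2 fold change beyond 3 in size lie outside the axis, and the called members have means between 3.34 FPKM (MYB55) and 15.6 FPKM (MYB47), with MYB23 lowest at -1.81.

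In the plot of all tested rows the called members sit among many other rows of like level. Tested members differed at least 2-fold in FPKM in 7 rows, but only 3 of these were called. The 4 others, MYB5, MYB50, MYB66 and MYB68, were each under 2 FPKM in silex. On the inner side of the threshold lay MYB77 (q = 0.00961) and MYB106 (q = 0.0207), and on the outer side MYB43 (q = 0.0535) and MYB30 (q = 0.0619), all in the authors' deposited table.

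Other MYB proteins offer a view beyond the family numbers. In a list of 21 such genes 9 are also members, and 8 of the remaining genes were tested, of which 2 were called higher and 0 lower in epic2 (25% called, beside 18.3% of all tested rows and 9.51% higher), with 1 lower at an unadjusted p under 0.05. AS1, which is MYB91 by number and sets leaf polarity, had 45.3 FPKM in epic2 and 33.5 FPKM in silex, with a log2 fold change of 0.43 ± 0.09 (q = 5.37e-05) in the authors' deposited table. MYB3R-4, a cell cycle activator with more MYB repeats, had 4.30 FPKM in epic2 and 3.08 FPKM in silex, with a log2 fold change of 0.48 ± 0.16 (q = 0.0149) in the authors' deposited table. RAX2, a factor of axillary meristems that is MYB38 by number, had 0.328 FPKM in epic2 and 1.101 FPKM in silex and was not called (q = 0.0596 in the authors' deposited table).

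The sequences just before 4 of the called genes are printed because these genes span the calls, 1 higher and 3 lower. Each window is the 250 bases before the annotated gene start in TAIR10.1, 5′ to 3′ in the direction of transcription. Capitals mark the letters TTGAC, the core of the W-box bound by WRKY proteins, or GTCAA, which is the same core on the other strand. The MYB47 window is chr1:6450335-6450584 (plus strand), the MYB23 window chr5:16127475-16127724 (plus strand), the MYB60 window chr1:2820479-2820728 (minus strand) and the MYB106 window chr3:48297-48546 (minus strand).
MYB47: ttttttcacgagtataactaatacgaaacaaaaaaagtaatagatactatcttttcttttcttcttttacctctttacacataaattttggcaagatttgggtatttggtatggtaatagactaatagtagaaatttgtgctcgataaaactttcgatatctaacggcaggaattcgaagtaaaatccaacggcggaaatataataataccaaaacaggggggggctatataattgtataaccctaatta
MYB23: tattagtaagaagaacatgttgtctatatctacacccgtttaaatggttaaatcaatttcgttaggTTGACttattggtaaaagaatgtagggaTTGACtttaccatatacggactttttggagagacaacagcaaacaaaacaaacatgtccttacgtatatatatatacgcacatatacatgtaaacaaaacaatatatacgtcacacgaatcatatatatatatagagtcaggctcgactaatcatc
MYB60: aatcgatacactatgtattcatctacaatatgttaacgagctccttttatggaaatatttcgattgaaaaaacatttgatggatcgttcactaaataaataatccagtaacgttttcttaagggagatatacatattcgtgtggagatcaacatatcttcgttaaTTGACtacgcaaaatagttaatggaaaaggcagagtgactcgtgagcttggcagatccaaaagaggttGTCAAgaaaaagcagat
MYB106: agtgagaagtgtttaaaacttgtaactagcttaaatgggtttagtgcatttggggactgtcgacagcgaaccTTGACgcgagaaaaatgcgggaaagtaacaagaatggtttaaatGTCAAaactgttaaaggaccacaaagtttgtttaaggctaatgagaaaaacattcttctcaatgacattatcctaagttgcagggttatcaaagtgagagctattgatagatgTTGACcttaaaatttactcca
The windows of MYB23, MYB55, MYB60, MYB77 and MYB106 held the core, and those of MYB47 and MYB70 did not. It was found on either strand in 19 of the 47 tested member genes (40.4%) and in 44.9% of the 27443 windows of protein-coding genes. The AC element ACCNAAC, a site of phenylpropanoid MYBs, was in the windows of MYB23, MYB55, MYB70 and MYB77, in 10 tested members and in 14.5% of all windows. The MYB core CNGTTA was in 4 called windows, 15 tested members and 26.6% of all windows, and CNGTTG in 3 called windows, 8 tested members and 20.3%. The other letters searched on both strands were ACCNACC (6.10% of windows, 3 tested members), the G-box CACGTG (6.49%, 3 tested members), TGTCTC (10.9%, 6 tested members) and the L1 box TAAATGNA (9.91%, 7 tested members). Motifs can overlap, and a match in a window is not a bound site.

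The tissue label was checked with marker genes. Of 7 aerial markers 4 were tested, none was called or had an unadjusted p under 0.05, and the summed level of those was 32062 FPKM in epic2 and 33544 FPKM in silex. RBCS1A and RCA were not tested because the authors' test marked them as holding too much data. The 4 tested root markers summed to 34.4 FPKM in epic2 and 28.7 FPKM in silex. Most of this came from SCR, with 21.5 FPKM in epic2 and 18.6 FPKM in silex, and SHR, with 9.65 FPKM in epic2 and 9.04 FPKM in silex, which leaves express too. Of the 4 tested root markers 2 were called, both higher in epic2 (50%, beside 18.3% of all tested rows and 9.51% higher). All 4 had higher values in epic2, 3 of them with an unadjusted p under 0.05 in the authors' test. The called ones were CASP1, a Casparian strip gene with 1.52 FPKM in epic2 and 0.252 FPKM in silex, and FRO2. FRO2, an iron reductase gene, had 1.74 FPKM in epic2 and 0.857 FPKM in silex. IRT1, the root iron transporter gene, was not tested at 0.0309 FPKM in epic2 and 0 in silex, and WOX5, which marks the root tip, had 0.118 FPKM in epic2 and 0.152 FPKM in silex. The pollen marker AGP11 was tested and not called, with 0.573 FPKM in epic2 and 0.108 FPKM in silex. In either line the untested pollen markers did not exceed 0.397 FPKM, and the seed markers, all untested, did not exceed 0.0697 FPKM. The part of root material in the MYB values was not tested.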

How the data were processed

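Total RNA from 3 epic2 and 3 wild type samples was read from one end after TruSeq library preparation, per the labels' protocols. The submitters' processing notes name TopHat, Cufflinks, Cuffdiff and the TAIR10 build, with versions and settings not given in the sources used here. For each row the authors deposited an FPKM value per line, pooled over replicates, with a log2 fold change, a test statistic (a score), a p-value and a q-value per row. The deposited log2 fold change is epic2 over silex, per the file headers and the values, while the deposited score has the opposite sign. A two-sided normal p computed from the score matched the deposited p-value to within 2.8e-06, so the implied standard error is the fold change divided by the score. No source used here says how the authors scaled libraries, and sequencing depth is unknown, so no counting interval is given. The labels name biological replicates without saying that they were grown apart, so any p-value reflects at most the variation among these samples, which may be technical.

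A row was called where the authors tested it and gave a q of at most 0.05. The lists and members were chosen with earlier results of these data known. Named members are every called one, up to 3 uncalled tested ones per subgroup by mean FPKM, the 2 nearest the threshold on each side, and every untested one; for lists, up to 4 called genes by change on the log2(FPKM + 1) scale. Further members and list genes were named after their values were seen. Genes were matched to the RefSeq annotation of TAIR10.1, which keeps the nuclear coordinates of TAIR10, and gene coordinates are the authors' row intervals, 1-based. The alternatives tried were Benjamini-Hochberg or Bonferroni adjustment, q thresholds of 0.01 and 0.10, a 2-fold minimum, a mean of at least 1 FPKM, centring and a pseudocount of 0.1 FPKM. The Benjamini-Hochberg step was tried on simulated data, which does not test the authors' q-values on which the main calls rest. The tools were scipy 1.17.1, pandas 2.3.3 and numpy 2.4.6 under Python 3.11.15, with matplotlib 3.10.9 for plots.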

Additional observations from a re-analysis of the deposited data

How the results depend on the processing

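The 7 calls of the main comparison (1 higher and 6 lower in epic2) became 12 (1 and 11) at a q of 0.10. They became 2 (1 and 1) under Bonferroni adjustment, where MYB47 and MYB23 kept their calls, and 2 (1 and 1) with a 2-fold minimum on the log2(FPKM + 1) scale. At a q of 0.01 MYB106 lost its call and 6 members kept theirs. All 7 kept their calls under Benjamini-Hochberg adjustment over all tested rows. A minimum mean of 1 FPKM could remove none of them, because their lowest mean was 3.34 FPKM (MYB55). Centring shifted the fold changes but kept the authors' q-values, so it was no new test of the calls. The lists other than the markers held 29 calls (10 higher and 19 lower), where 18.3% of all tested rows were called, 9.51% higher and 8.8% lower. Genes tested were 15 for the partners, 28 for the secondary wall, 20 for lignin, 29 for wax and cutin, 7 for suberin and 8 for other MYB proteins. The 29 calls became 17 (6 and 11) at a q of 0.01 (11.8% of rows, 5.92% in each direction). Under Bonferroni adjustment they became 7 (1 and 6), with 4.41% of rows called, 1.7% higher and 2.71% lower. The 2 called root markers, both higher in epic2, are not in these counts. GL2, IRX1 and IRX3 lost their calls under Benjamini-Hochberg adjustment over all tested rows, with q = 0.0575 for GL2. No result changed direction under these alternatives, but most of them could not have changed one. The adjustments, q thresholds and minimums reused the authors' fold change of each row, and a pseudocount cannot reverse its sign. For a single row only centring could have done so. The median log2 fold change of tested members ranged from -0.35 with centring to -0.23 on the log2(FPKM + 1) scale. Without rows that share an interval with another row, an alternative chosen after seeing the data, it stayed at -0.34 and 33 members were lower in epic2.

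No paired analysis was possible because the authors deposited 1 pooled value per group, and leaving out a replicate was not possible for the same reason. The members' low FPKM limits precision, with implied standard errors of 0.11 to 0.94 on the log2 scale.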
